A study of Mus musculus with 24 samples.

Results

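The genes described here were grouped as identity genes of the pyramidal neurons of hippocampal CA1: Wfs1, Fibcd1, Mpped1, Pou3f1, Spink8, Neurod6 and Hap1. They were taken by gene symbol and are 7 of the 18647 genes in the table of counts. All 7 passed the filter on low counts, which left 18153 genes for testing. The study sequenced RNA of the whole microdissected CA1 field, with 8 groups of 3 libraries, 24 in all. In the status epilepticus (SE) groups, adult C57Bl/6N mice had received 335 mg/kg pilocarpine hydrochloride, a muscarinic agonist that sets off prolonged seizures, and tissue was taken at 6, 12, 24, 36 or 72 h. The control (Ctr) groups at 12, 36 and 72 h received saline instead, and there was no Ctr group at 6 h or 24 h. Animals of both arms were pretreated with scopolamine methyl nitrate, which keeps pilocarpine effects outside the brain low, and were later given diazepam, a drug used to end seizures. Pilocarpine-injected mice without SE were left out by the study, so each SE group is a selected set of animals.

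CA1 pyramidal neurons are the glutamatergic output cells of the hippocampus, and they receive their main input from CA3 through the Schaffer collaterals. They are told apart from CA2, CA3 and dentate granule neurons by a small set of genes that are switched on late in development and stay on in the adult. Among the genes here, Neurod6 is a basic helix-loop-helix transcription factor of the NeuroD family, which binds E-box sequences in cortical and hippocampal excitatory neurons. Pou3f1, also called Oct-6 or SCIP, is a POU-domain transcription factor that binds octamer sequences. Wfs1 encodes wolframin, a membrane protein of the endoplasmic reticulum (ER) that is mutated in Wolfram syndrome and acts in calcium handling and the ER stress response. Fibcd1 encodes a plasma membrane receptor with a fibrinogen-related domain that binds acetylated glycans. Spink8 belongs to the Kazal-type serine protease inhibitors, Mpped1 to the metallophosphoesterase domain proteins, and Hap1 encodes the huntingtin-associated protein, an adaptor of kinesin- and dynein-driven transport.

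In GRCm39, the build of the table, Wfs1 (ENSMUSG00000039474) spans chr5:37106176-37153872 on the minus strand and Fibcd1 (ENSMUSG00000026841) chr2:31702948-31736233 on the minus strand. Mpped1 (ENSMUSG00000041708) spans chr15:83656262-83742695 and Pou3f1 (ENSMUSG00000090125) chr4:124550600-124554448, both on the plus strand. Spink8 (ENSMUSG00000050074) spans chr9:109641348-109655706 on the plus strand. Neurod6 (ENSMUSG00000037984) spans chr6:55654807-55658326 and Hap1 (ENSMUSG00000006930) chr11:100238152-100246978, both on the minus strand. All are protein-coding, and counts were made over exons. Exon bases are given from GENCODE M39, a later release than the study counted with, so the bases shared in its counts may differ. Because reads were counted without regard to strand, 2660 of the 10545 exon bases of Wfs1 cannot be told apart from those of the antisense gene Ppp2r2c. The bases shared with antisense long noncoding genes were 555 of 3849 in Pou3f1, 635 of 2228 in Neurod6 and 186 of 13318 in Mpped1, whereas Fibcd1, Spink8 and Hap1 shared none.

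RefSeq promoters (GRCm38.p6, 250 bases before to 50 after each gene start) were at hand for 5 of the 7 genes, Wfs1, Fibcd1, Mpped1, Neurod6 and Hap1; Pou3f1 and Spink8 had no entry. They were searched on both strands for CAGATG (an E-box of NeuroD factors), ATGCAAAT (the POU octamer), TGANTCA (the AP-1 site of Fos and Jun) and TGACGTCA (the cAMP response element). Over the 32851 promoters of the table, 17.2% held the E-box, 1.74% the octamer, 7.81% the AP-1 site and 1.79% the cAMP response element. Only 1 of the 5 genes held any of these letters in this window, namely Wfs1, with an E-box on the minus strand at position -170 from its start. The 250 bases before the start of the genes that moved farthest apart after SE, Wfs1 and Fibcd1, and of Neurod6, are given 5′ to 3′ with the E-box in capitals. The Wfs1 stretch lies within chr5:36988933-36989232, the Fibcd1 stretch within chr2:31845956-31846255 and the Neurod6 stretch within chr6:55681214-55681513, all on the minus strand.
Wfs1: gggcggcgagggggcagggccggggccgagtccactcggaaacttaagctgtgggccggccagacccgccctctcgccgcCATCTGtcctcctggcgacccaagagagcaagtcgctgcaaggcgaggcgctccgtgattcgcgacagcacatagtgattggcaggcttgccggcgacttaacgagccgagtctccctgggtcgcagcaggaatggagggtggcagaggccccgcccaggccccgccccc
Fibcd1: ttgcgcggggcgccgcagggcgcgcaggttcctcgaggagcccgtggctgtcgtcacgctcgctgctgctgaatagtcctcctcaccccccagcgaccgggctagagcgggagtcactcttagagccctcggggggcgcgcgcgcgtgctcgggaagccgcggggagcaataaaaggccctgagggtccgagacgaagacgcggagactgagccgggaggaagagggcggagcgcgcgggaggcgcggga
Neurod6: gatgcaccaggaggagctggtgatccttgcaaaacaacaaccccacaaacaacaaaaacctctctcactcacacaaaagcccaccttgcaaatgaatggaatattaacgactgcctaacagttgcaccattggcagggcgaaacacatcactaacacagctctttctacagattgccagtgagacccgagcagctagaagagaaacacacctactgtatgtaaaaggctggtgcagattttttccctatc
The promoters of Wfs1 and Fibcd1 held 30 and 46 CpG dinucleotides in 300 bases, and that of Neurod6 held 3, against a median of 7 over all promoters of the table. Their GC content was 70%, 74.3% and 46.3%, against a median of 52.7%.

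The libraries held 2663936 to 30133731 counts (median 13521590). The lowest count of any of the 7 genes in any library was 31, for Spink8, so each was measured well above the detection limit. Levels are given in CPM, the counts scaled to the TMM-adjusted size of each library. In control CA1, levels per kilobase of exon (RPKM) were highest for Hap1 (77.9 ± 9.46, mean ± SD, n = 9) and Neurod6 (75.03 ± 34.4), followed by Fibcd1 (59.3 ± 33.4) and Mpped1 (37.3 ± 6.89). Pou3f1 (19.3 ± 7.01), Spink8 (17.7 ± 4.33) and Wfs1 (16.2 ± 13.5) were lowest in RPKM. In this order, each gene lay within the SD of its neighbours except Mpped1 and Pou3f1, which were separated by more than the sum of their SDs. RPKM was taken over all exon bases of a gene, those shared with an antisense gene included, and their part in the order was not tested.

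The control libraries were far more alike for some of the genes than for others. The coefficient of variation of CPM over the 9 controls was 12.2% for Hap1, 18.5% for Mpped1 and 24.5% for Spink8, but 36.3% for Pou3f1, 45.8% for Neurod6, 56.3% for Fibcd1 and 83% for Wfs1. Without Ctr 12 h replicate 2 it was 30.4% for Wfs1 and 44.4% for Fibcd1, so that the place of Wfs1 as the most variable gene rested on that library. A single control, Ctr 12 h replicate 2, held the highest Wfs1 (537 CPM) together with the lowest Fibcd1 (43.2 CPM) and Spink8 (11.3 CPM) of all controls. Another, Ctr 12 h replicate 3, held the highest Neurod6 (331 CPM) and Spink8 (29.5 CPM) and the lowest Wfs1 (67.8 CPM) and Mpped1 (317 CPM). In that library the summed level of 4 CA3 pyramidal genes was 452 CPM, against 88.2 to 124 CPM in the other controls, and their part in the Neurod6 value was not tested. Calls that changed without either library are given below with the value that resulted.

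Summed CPM of CA1 identity genes was 1126 to 1960 in controls and 587 to 1096 in SE libraries. For the other hippocampal fields, CA2 genes summed to 75.5 to 322 CPM over all libraries, CA3 genes to 88.2 to 452 CPM, and dentate granule genes to 5.29 to 254 CPM. The dentate markers Dsp, Tdo2 and Plk5 had a count of 0 in at least 1 library. In each library the CA1 genes summed higher than those of each other field, and the highest dentate sum was that of SE 72 h replicate 1. The lists differ in number of genes and in how abundant each gene is, so this order cannot measure the purity of a dissection. Sensory ganglion genes, which CA1 should lack, summed to 7.70 to 73.5 CPM in most libraries and to 352 to 1867 CPM in 6 of them, SE 6 h replicate 3, SE 12 h replicate 1, SE 36 h replicate 3, Ctr 72 h replicate 2 and SE 72 h replicates 1 and 2. Their part in the results was not tested. In bulk tissue, fewer pyramidal neurons and less RNA of a gene per neuron cannot be told apart.

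**Figure D1:**
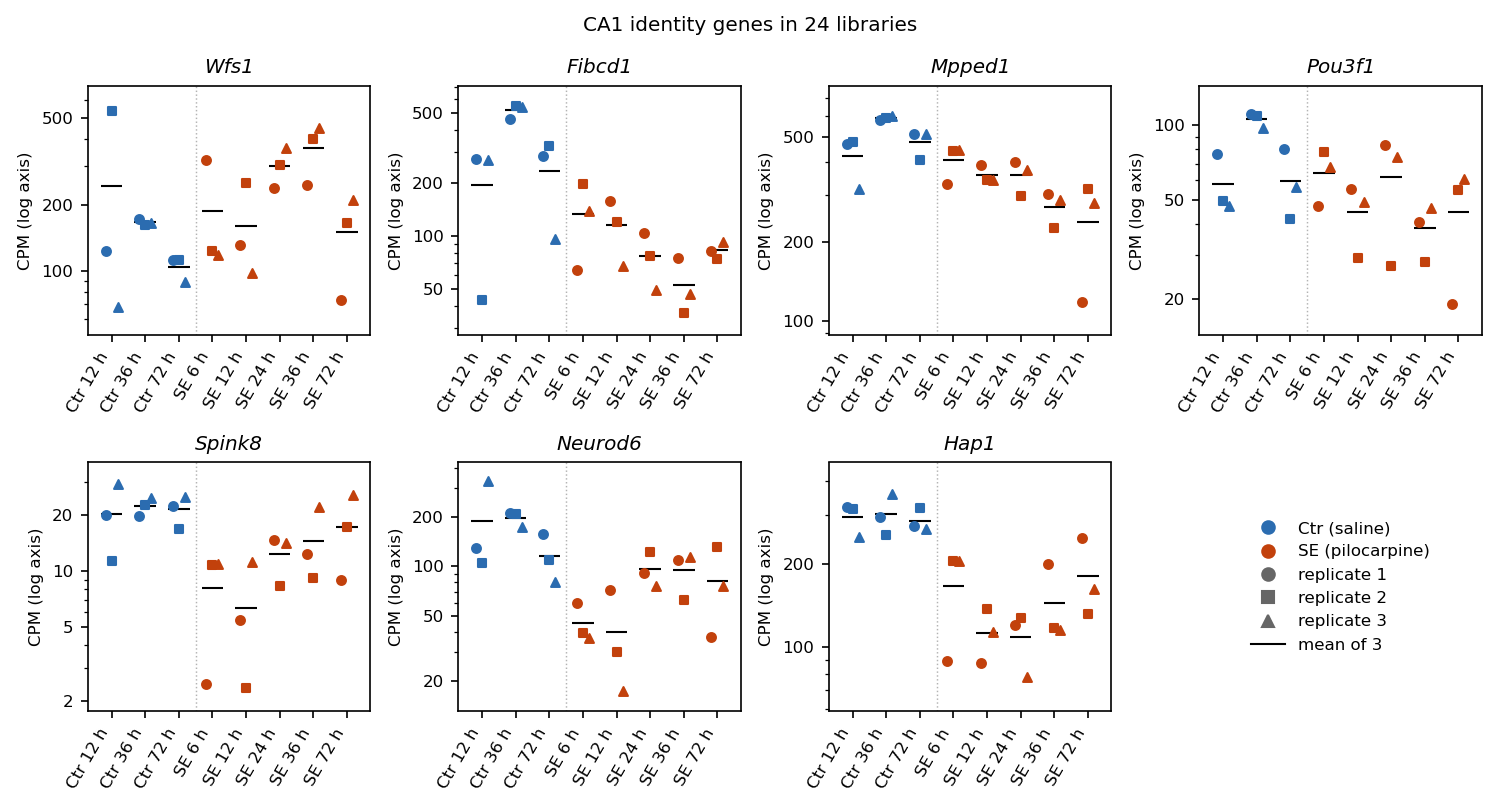
CPM (log axis) of each of the 7 genes in each library, in 3 control groups (blue) and 5 SE groups (orange), with marker shape for the replicate and a line for the group mean. Hap1 lies lower in all 15 SE libraries than in any control, whereas Wfs1 reaches 447 CPM at 36 h and 537 CPM in a single control.

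Compared with controls, Neurod6 and Spink8 were called lower at 6 and 12 h and Hap1 from 6 to 36 h. Fibcd1 was called lower from 24 h on, Mpped1 at 36 and 72 h and Pou3f1 at 36 h. Wfs1 was not called at any time. These times are those of calls. The main edgeR fit called no difference of the SE effect between times for any of the 7, as given below. A call needed a log2 fold change (Log2FC) of 0.66 or more in size together with an adjusted p of 0.05 or less, taken from the quasi-likelihood test of edgeR and adjusted by Benjamini-Hochberg across 18153 genes. In the main fit, each call among the 7 genes was of a lower level in SE. At 6 h, 3 of the 7 were called, against 6.21% of all genes called lower. The 12 h comparison called 3 (11.4% of all genes), the 24 h comparison 2 (9.22%), the 36 h comparison 4 (8.92%) and the 72 h comparison 2 (4.21%). In that order the median Log2FC of the 7 genes was -0.83, -0.77, -0.76, -1.07 and -0.53, and that of all genes tested was 0.06, 0.01, 0.04, 0.00 and 0.10. The comparisons at 6 h and 24 h used the same 9 controls, from other times, and those controls also served at 12, 36 and 72 h. In Ctr 36 h the 7 genes summed to 1850 to 1960 CPM, against 1126 to 1539 CPM in the controls of 12 and 72 h. The 4 calls and the median at 36 h were thus measured against the control group with the highest sum.

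Counted by library rather than by test, each SE library lay below each control for 3 of the 7 genes at 6 h (9.27% of all genes) and for 1 at 24 h (10.0%), where 9 controls were compared. With 3 controls, this held for 3 of the 7 at 12 h (23.2% of all genes), for 5 at 36 h (26.2%) and for 3 at 72 h (13.4%). At 36 h Wfs1 was separated in the other direction, with each SE library above each control. The share of all genes separated in that direction was not counted. Such shares were also not counted between SE times or between control groups.

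**Figure D2:**
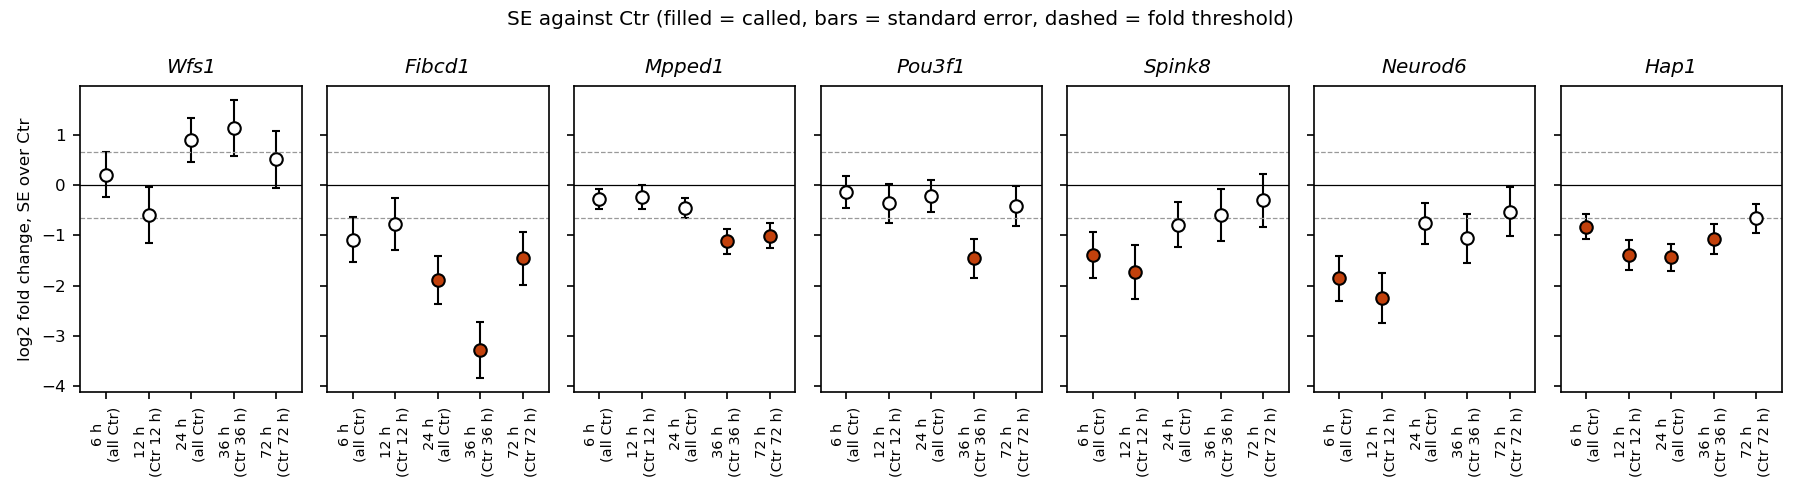
Log2FC (SE over Ctr, vertical axis) of each gene in the 5 comparisons, with bars for the standard error, filled points for called genes and dashed lines at the fold threshold of 0.66. Spink8 and Neurod6 are filled at 6 and 12 h, Fibcd1 from 24 h on, Mpped1 at 36 and 72 h, Pou3f1 at 36 h and Hap1 from 6 to 36 h.

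Neurod6 showed the strongest early fall of the 7 genes. It was at 59.6, 39.4 and 36.7 CPM at 6 h and at 71.8, 30.2 and 17.5 CPM at 12 h, against 130, 104 and 331 CPM in Ctr 12 h. It was at 91.6, 122 and 76.1 CPM at 24 h. In the Ctr 36 h libraries it was at 210.5, 209 and 175 CPM, and in Ctr 72 h at 157, 109 and 79.9 CPM. Every 6 h and 12 h library lay below every control, whereas 2 of the 3 libraries at 24 h were within the control range.

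Neurod6 fell by 1.85 on the log2 scale at 6 h (SE of the estimate 0.44, adjusted p = 0.00246) and by 2.24 at 12 h (0.50, adjusted p = 0.00155), to 27.7% and 21.1% of the control level. Without Ctr 12 h replicate 3, the library with the high CA3 sum, the 12 h Log2FC was -1.55 (adjusted p = 0.018). At 36 h it was at 109, 62.2 and 114 CPM, below each Ctr 36 h library, but with a Log2FC of -1.06 ± 0.48 it was not called (adjusted p = 0.102). At 72 h it was at 37.0, 131 and 76.1 CPM and the groups overlapped (Log2FC -0.53 ± 0.49, adjusted p = 0.454). The step from 12 h to 24 h within SE was 1.28 ± 0.49 with each 24 h library above each 12 h library, and it was not called (adjusted p = 0.106). Without SE 12 h replicate 1 that step was 2.00 (adjusted p = 0.0213).

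Spink8, the least abundant of the genes in CPM, moved with a similar timing. It was at 2.48, 10.8 and 10.96 CPM at 6 h and at 5.47, 2.35 and 11.2 CPM at 12 h, against 20.1, 11.3 and 29.5 CPM in Ctr 12 h. The highest 12 h value, 11.23 CPM, lay just under the lowest Ctr 12 h value, 11.27 CPM. Ctr 36 h held 19.9, 22.6 and 24.6 CPM and Ctr 72 h 22.5, 16.9 and 25.1 CPM. No SE library at 6 h or 12 h reached a control.

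Spink8 fell by 1.39 at 6 h (± 0.46, adjusted p = 0.0223) and by 1.73 at 12 h (± 0.54, adjusted p = 0.015) on the log2 scale. Both calls rest on single libraries. Without SE 6 h replicate 1 the 6 h Log2FC was -0.97 (adjusted p = 0.115), and at 12 h it was -1.35 (0.0825) without Ctr 12 h replicate 3 and -1.32 (0.0681) without SE 12 h replicate 2. Leaving out Ctr 12 h replicate 2, the control with the lowest Spink8, gave -1.98 (adjusted p = 0.0106). At 24 h it was at 14.7, 8.32 and 14.2 CPM (Log2FC -0.79 ± 0.45, adjusted p = 0.165). By 36 h (12.4, 9.14 and 22.1 CPM) and 72 h (8.99, 17.4 and 25.5 CPM) the SE libraries overlapped the controls, with Log2FC of -0.60 ± 0.52 and -0.30 ± 0.53.

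Hap1 was the steadiest gene in controls and was called at the most times, 4 of 5. Controls held 322, 316 and 251 CPM at 12 h, 296, 256 and 358 CPM at 36 h and 276, 318 and 268 CPM at 72 h. SE libraries held 89.0, 206 and 205 CPM at 6 h, 88.0, 138 and 113 CPM at 12 h and 121, 128 and 78.4 CPM at 24 h. They held 199.7, 118 and 115 CPM at 36 h and 248, 132 and 163 CPM at 72 h. The highest SE value, in SE 72 h replicate 1, was under the lowest control value.

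Hap1 fell to 56.4% of control at 6 h (Log2FC -0.83 ± 0.25, adjusted p = 0.013), 38.2% at 12 h (-1.39 ± 0.30, 0.00112) and 37% at 24 h (-1.44 ± 0.26, 0.000202). It was at 47.7% at 36 h (-1.07 ± 0.30, 0.00872). At 72 h it was at 63.2% (-0.66 ± 0.30, adjusted p = 0.101), which did not pass the test. The 6 h call rested on SE 6 h replicate 1, without which the Log2FC was -0.53 (adjusted p = 0.0991), and without SE 72 h replicate 1 the 72 h value was -0.96 (adjusted p = 0.036). Gm20394, a noncoding gene that overlaps the Hap1 locus on the same strand, was called lower at the same 4 times as Hap1, at 6 h (-1.23 ± 0.40, adjusted p = 0.0186), 24 h (-1.80 ± 0.42, 0.00202), 12 h (-1.91 ± 0.46, adjusted p = 0.00279) and 36 h (-1.69 ± 0.46, 0.00813), and it shares no exon base with Hap1. The level of Gm20394 was low, from 0.49 to 3.66 CPM over all libraries.

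Fibcd1 showed the largest change of the 7 genes at any time. The SE libraries held 64.0, 197 and 138 CPM at 6 h and 158, 119.7 and 67.5 CPM at 12 h. They held 105, 77.3 and 49.8 CPM at 24 h and 75.4, 36.7 and 47.1 CPM at 36 h. Against these, Ctr 36 h held 462, 545 and 542 CPM, far above each SE library of any time. At 72 h SE held 82.4, 74.2 and 92.3 CPM, just under the lowest Ctr 72 h value of 96.7 CPM, with 283 and 323 CPM in the other two.

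At 36 h, Fibcd1 was at 10.3% of Ctr (Log2FC -3.28 ± 0.56, adjusted p = 0.000153), lower than all but 67 of the 18153 genes tested. At 24 h it was at 27.1% (-1.88 ± 0.47, 0.00342), although Ctr 12 h replicate 2 lay below the SE 24 h libraries and Ctr 72 h replicate 3 lay among them. Without Ctr 12 h replicate 2 the 24 h value was -2.04 (adjusted p = 0.000219), and in a fit that also held a term for the 3 ranges of label numbers it was -1.58 (adjusted p = 0.0668) and not called. At 72 h the Log2FC was -1.45 ± 0.53 (adjusted p = 0.0448), a call that was lost without any 1 of 5 of the 6 libraries compared, with adjusted p from 0.0784 to 0.145. Only without Ctr 72 h replicate 3, the low control, did it hold. At 12 h it was not called (-0.77 ± 0.52, adjusted p = 0.251), and without Ctr 12 h replicate 2 it was (-1.22, adjusted p = 0.0356). At 6 h it was -1.09 ± 0.45 (adjusted p = 0.0589), and it was called without Ctr 12 h replicate 2 (-1.23, adjusted p = 0.00901), SE 6 h replicate 2 (-1.49, 0.0427) or Ctr 72 h replicate 3 (-1.23, 0.0325).

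Fibcd1 also differed most between control groups. Each Ctr 36 h library was above each Ctr 12 h and Ctr 72 h library, with Log2FC of 1.41 ± 0.52 against Ctr 12 h (unadjusted p = 0.0137, adjusted p = 1) and -1.18 ± 0.52 for Ctr 72 h against Ctr 36 h (adjusted p = 0.194). The size of the 36 h fall was therefore measured against the control group with the highest Fibcd1. The lowest control group mean was 196 ± 132 CPM (SD, n = 3) at 12 h, where 1 of the 3 controls lay within the range of SE 36 h (53.1 ± 20.0 CPM, SD, n = 3).

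Mpped1 changed late. Controls held 471, 477 and 317 CPM at 12 h, 580.1, 589.7 and 598 CPM at 36 h and 512, 409 and 511 CPM at 72 h. SE held 330.2, 442 and 447 CPM at 6 h, 389, 343 and 342 CPM at 12 h and 402, 297 and 373 CPM at 24 h, of which only SE 24 h replicate 2 lay below the lowest control. At 36 h SE held 303, 225 and 287 CPM and at 72 h 118, 316 and 280.4 CPM, with no overlap with the time-matched controls. Each Ctr 36 h library was above every other control (Log2FC 0.48 ± 0.24 against Ctr 12 h, unadjusted p = 0.0578). The 36 h fall was therefore measured against the control group with the highest Mpped1.

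Mpped1 fell by 1.12 on the log2 scale at 36 h (± 0.24, adjusted p = 0.00142) and by 1.01 at 72 h (± 0.24, adjusted p = 0.00415). Without SE 72 h replicate 1, the library with the lowest Mpped1 and the highest dentate sum (254 CPM), the 72 h value was -0.67 (adjusted p = 0.0117). At 6, 12 and 24 h the Log2FC was -0.27 ± 0.20, -0.23 ± 0.24 and -0.46 ± 0.20, none of which was called. Its paralog Mpped2 was called at 36 h (-0.69 ± 0.20, adjusted p = 0.0106).

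Pou3f1 was called at 36 h alone. There SE held 40.8, 28.2 and 46.3 CPM and Ctr 111, 109 and 97.5 CPM, so that no SE library came near a control (Log2FC -1.45 ± 0.39, adjusted p = 0.0073). Ctr 12 h held 76.8, 49.4 and 47.3 CPM and Ctr 72 h 80.0, 42.1 and 56.6 CPM. Like Fibcd1, it was thus higher in each Ctr 36 h library than in the other controls (0.88 ± 0.39 against Ctr 12 h, unadjusted p = 0.0338, adjusted p = 1). At 12 h SE held 55.4, 29.2 and 49.1 CPM and at 72 h 19.1, 54.7 and 60.8 CPM, both overlapping the controls.

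At 12 and 72 h the Log2FC of Pou3f1 was -0.37 ± 0.39 and -0.41 ± 0.39. At 6 h (47.3, 78.1 and 68.0 CPM) and 24 h (83.2, 27.2 and 74.7 CPM) it was -0.14 ± 0.32 and -0.21 ± 0.32. Of its paralogs, Pou3f2 fell by 1.62 at 6 h (± 0.19, adjusted p = 1.73e-06) by 1.36 at 12 h (± 0.21, adjusted p = 4.79e-05) and by 0.77 at 24 h (± 0.18, adjusted p = 0.00152), and was -0.24 ± 0.20 at 36 h. Pou3f3 and Pou3f4 were not called at any of the 5 times. Gm2164, an antisense gene sharing bases with Pou3f1, was also called lower at 36 h (-1.30 ± 0.44, adjusted p = 0.0295). The level of Gm2164 was low, from 0.56 to 4.68 CPM over all libraries.

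Wfs1 did not share this direction. SE held 320.5, 123 and 118 CPM at 6 h, 131, 250.4 and 97.1 CPM at 12 h and 238, 304 and 363 CPM at 24 h. At 36 h it held 246, 399.9 and 447 CPM, each above the Ctr 36 h libraries at 172, 162 and 165 CPM. At 72 h it held 73.4, 166 and 211 CPM, overlapping Ctr 72 h at 112, 112 and 88.5 CPM. Ctr 12 h held 122, 537 and 67.8 CPM, the widest spread of any group.

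Wfs1 was not called in any comparison. Its Log2FC was 1.13 ± 0.56 at 36 h (adjusted p = 0.136) and 0.90 ± 0.43 at 24 h (adjusted p = 0.104). Without Ctr 12 h replicate 2, the 24 h value was 1.36 (adjusted p = 0.00241). In a fit of the compared groups alone the 36 h value was 1.14 (adjusted p = 0.000537). At 12 h the value was -0.60 ± 0.56, and 0.79 without Ctr 12 h replicate 2, so that this library set the direction. At 6 h it was 0.21 ± 0.45, and -0.43 without SE 6 h replicate 1. The antisense gene Ppp2r2c was not called at any time, with Log2FC from -0.36 to -0.14, and it stood at 595 CPM in Ctr 12 h replicate 2, within the range of the other controls (564 to 755 CPM).

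**Figure D3:**
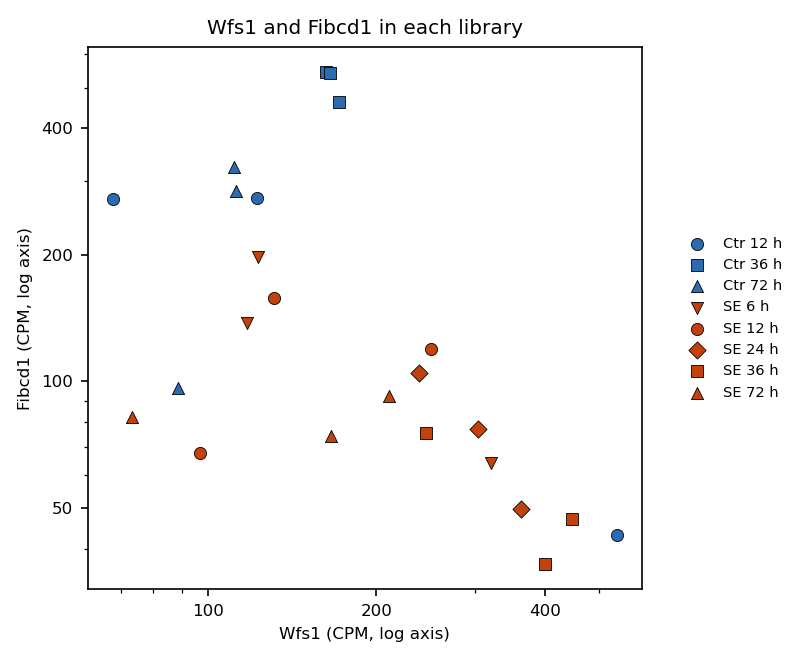
Wfs1 (horizontal) against Fibcd1 (vertical) in CPM on log axes, one point per library, in controls (blue) and SE (orange). The 3 SE 36 h libraries sit at high Wfs1 (246 to 447 CPM) and low Fibcd1 (36.7 to 75.4 CPM), and Ctr 12 h replicate 2 lies beyond them in Wfs1 (537 CPM) with a Fibcd1 of 43.2 CPM.

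Ctr 12 h replicate 2 had a higher Wfs1 than any SE library and a Fibcd1 within the SE range. Its Hap1 (316 CPM) and Mpped1 (477 CPM) were in the control range, above every SE library of 24 h or later. Its summed microglia genes (343 CPM) were also within the control range of 306 to 401 CPM. Other genes of this library were not control-like, with the lowest Spink8 of the controls (11.3 CPM). The 6 further CA1 genes listed below summed to 563 CPM in it, against 757 to 1288 CPM in the other controls. That sum was within the SE range of 495 to 867.5 CPM.

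Within the 9 controls, the genes were compared pairwise on log2 CPM over 21 pairs, with exact permutation tests (two-sided). The permutations ran over all 9 controls without regard to time, so the p-values do not set aside differences between control groups. No pair passed after Benjamini-Hochberg adjustment, and 2 had an unadjusted p below 0.05. Mpped1 and Pou3f1 were positively correlated (Pearson r = 0.81, exact p = 0.00373, adjusted 0.0782, n = 9), with Spearman rho of 0.87 (exact p = 0.00451, adjusted 0.0947). Without the 2 libraries farthest from the median of Mpped1, r was 0.81, but that omission kept each Ctr 36 h library. Both genes were highest in Ctr 36 h, Mpped1 at 580.1 to 598 CPM and Pou3f1 at 97.5 to 111 CPM. In the other controls they reached at most 512 and 80.0 CPM. The correlation can thus reflect that group difference, and a relation within control groups was not tested. Wfs1 and Spink8 ran opposite (r = -0.84, exact p = 0.0131, adjusted 0.138, rho = -0.60, exact p = 0.0968, adjusted 0.443). That relation rests on 2 libraries, since r was -0.02 without those farthest from the median of Wfs1. For Wfs1 and Fibcd1, r was -0.43 over 9 controls (exact p = 0.239, adjusted 0.53; rho = 0.25, exact p = 0.521, adjusted 0.841) and 0.92 without those 2 libraries. Ranges of the label numbers hold 5 or fewer controls each, too few for a value within them.

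Differences of the SE effect between time points were then tested directly. None of the 7 genes was called by the main edgeR fit at 36 h against 12 h, 72 h against 12 h or 72 h against 36 h. Of all genes, 3.36%, 18.6% and 4.90% were called. At an unadjusted p below 0.05 there were 3, 2 and 1 of the 7, respectively, against 20.3%, 35.8% and 22.4% of all genes. The nearest was Fibcd1, whose effect at 36 h was lower than at 12 h by -2.50 ± 0.74 (adjusted p = 0.0611). DESeq2 (-2.51, adjusted p = 0.0284) and limma-voom (-2.91, adjusted p = 0.0434) each called it, and no other of the 7. The Neurod6 effect at 72 h was higher than at 12 h by 1.72 ± 0.69 (adjusted p = 0.0774), and it was called without SE 12 h replicate 1 (2.45, 0.0129), Ctr 72 h replicate 1 (2.06, 0.0462) or SE 72 h replicate 1 (2.06, 0.0357). Without SE 72 h replicate 2, Mpped1 was called in the same comparison (-1.04, adjusted p = 0.041). Some other edgeR fits did call such differences. With the compared groups alone, Mpped1 was called at 36 h against 12 h (-0.88, adjusted p = 0.0456). That setting also called Fibcd1 at 72 h against 36 h (1.78, 0.0357). Scaled to pan-neuronal genes, Fibcd1 was called in both comparisons (-2.66, 0.0411 and 2.24, 0.0325). Neurod6 was then called at 72 h against 12 h (1.99, 0.038), and with a term for label ranges too (3.25, 0.0044). Early and late timing therefore describes which genes were called when. The main edgeR fit did not show a difference between times for any of them.

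Between consecutive SE time points, the main edgeR fit, DESeq2 and limma-voom called none of the 7 genes. In edgeR, 0, 1, 0 and 1 of them had an unadjusted p below 0.05, against 20.5%, 24.6%, 16.6% and 25.1% of all genes. Of all genes, 1.36% were called from 6 to 12 h, 3.22% from 12 to 24 h, 0.523% from 24 to 36 h and 4.16% from 36 to 72 h. Wfs1 was lower in each SE 72 h library than in each SE 36 h library (Log2FC -1.28 ± 0.57, adjusted p = 0.161). Between control groups these 3 fits again called none, with 2, 2 and 1 of the 7 at an unadjusted p below 0.05 in edgeR. For all genes the shares were 0% for Ctr 36 h against Ctr 12 h, 2.04% for Ctr 72 h against Ctr 36 h and 1.03% for Ctr 72 h against Ctr 12 h. The shares of all genes with an unadjusted p below 0.05 were 3.60%, 21.5% and 19.3%.

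Numbers in the sample labels fall into 3 ranges whose meaning the labels do not give. At 36 h, 2 SE and 3 Ctr libraries share a range, and the log2 difference between them was -3.28 for Fibcd1, -1.63 for Pou3f1, -1.17 for Mpped1, -0.97 for Hap1, -1.25 for Neurod6, -1.03 for Spink8 and 0.91 for Wfs1. At 12 h, 1 SE and 1 Ctr library share a range, with differences of -2.20 for Neurod6, -2.33 for Spink8, -1.50 for Hap1, -0.78 for Fibcd1, 0.30 for Mpped1, 0.23 for Pou3f1 and 0.95 for Wfs1. That SE library is SE 12 h replicate 1, with high sensory ganglion genes (695 CPM). The Ctr library is Ctr 12 h replicate 3, with the high CA3 sum (452 CPM). Of the controls it held the highest Neurod6 and Spink8 and the lowest Wfs1, Mpped1 and Hap1. The 3 SE 24 h libraries are in a range that holds no control, and at 72 h no SE library shares a range with its controls, so that range and SE cannot be told apart from the libraries of these comparisons alone.

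Of the 6 further CA1 genes listed, 1 was called lower at 6 h, 12 h and 24 h, 3 at 36 h and 2 at 72 h, and none was called higher. Crym, a thyroid hormone-binding protein, was called at each time, from -0.71 ± 0.22 at 6 h to -1.62 ± 0.27 at 36 h (adjusted p = 9.68e-05). Calb1, the calcium buffer calbindin, fell at 36 h (-1.34 ± 0.37, adjusted p = 0.00788) and 72 h (-1.26 ± 0.37, adjusted p = 0.015). Gpr161, an orphan receptor of the primary cilium, fell at 36 h (-1.81 ± 0.41, adjusted p = 0.00198). Man1a and Zbtb20 were not called at any time. Together the 6 genes also summed highest in Ctr 36 h, at 1175 to 1288 CPM against 563 to 1028 CPM in the other controls.

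Of 10 transcription factors of pyramidal neurons, 2, 5, 6, 6 and 1 were called lower in the 5 comparisons in order of time, and none higher. Neurod1, a relative of Neurod6, fell by 2.42 at 6 h (± 0.37, adjusted p = 4.12e-05) and by 1.96 at 24 h (± 0.35, adjusted p = 0.000187), whereas Neurod2 was not called at any time (-0.60 ± 0.20 at 12 h, under the fold threshold). Zbtb18, a transcriptional repressor of cortical neurons, fell by 1.75 at 12 h (± 0.22, adjusted p = 6.17e-06). Tbr1 and Bhlhe22 fell at 36 h by 1.56 (± 0.30, adjusted p = 0.000493) and 1.40 (± 0.33, adjusted p = 0.00265).

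Genes shared by all excitatory neurons moved too. Of 8 listed, 0 were called lower at 6 h, then 3, 4, 5 and 3 at the later times, among them Camk2a, the alpha subunit of calcium/calmodulin kinase II (-1.79 ± 0.20 at 36 h, adjusted p = 1.37e-06), and Nrgn, the calmodulin-binding neurogranin (-1.58 ± 0.25, adjusted p = 6.41e-05). Arpp21 rose by 2.09 at 6 h (± 0.23, adjusted p = 8.27e-07) by 1.97 at 12 h (± 0.32, adjusted p = 8.03e-05) and by 0.70 at 24 h (± 0.24, adjusted p = 0.0254). Of 12 pan-neuronal genes, in order of time, 0, 2, 1, 2 and 2 were called lower and 0, 1, 1, 1 and 0 higher, with a median Log2FC of -0.04, -0.23, -0.23, -0.16 and -0.40. The called pan-neuronal genes included Syt1, the calcium sensor of vesicle release (-1.01 ± 0.13 at 12 h, adjusted p = 8.83e-06), and Nefm, a neurofilament subunit (2.23 ± 0.38 at 36 h, adjusted p = 0.000134).

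**Figure D4:**
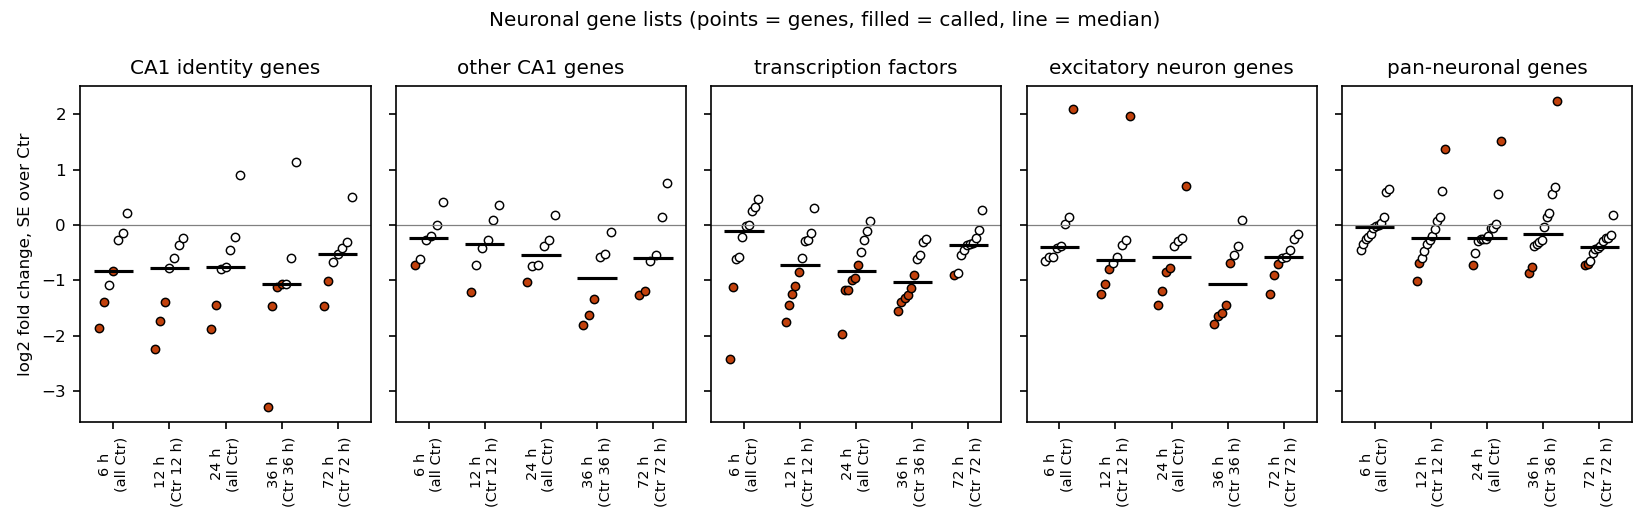
Log2FC (SE over Ctr) of single genes (points, filled if called) in 5 neuronal lists at 5 times, with a line for the list median. At 36 h the medians are -1.07, -0.96, -1.02 and -1.06 for the identity genes, other CA1 genes, transcription factors and excitatory neuron genes, and -0.16 for pan-neuronal genes.

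Genes of other cell types moved with the comparisons. Gfap, the astrocyte filament gene, was called higher at all 5 times, among them with a Log2FC of 2.57 ± 0.17 at 6 h (adjusted p = 8.43e-10) and of 4.31 ± 0.26 at 36 h (adjusted p = 3.82e-10). At 36 h, 3 of 7 astrocyte genes were called higher and 4 lower. At 6 h, 5 of 8 microglia genes were called lower, and oligodendrocyte genes summed to 5266 to 5523 CPM in SE against 2372 to 4210 CPM in Ctr. The part of these genes in the results was not tested. At 72 h microglia genes were called higher for 8 of 8, with summed levels of 1250 to 1814 CPM in SE against 306 to 400 CPM in Ctr. Pan-neuronal genes summed to 6529 to 7572 CPM in SE and 9231 to 11370 CPM in Ctr. The sum of 11370 CPM was that of Ctr 72 h replicate 2, which also held 1867 CPM of sensory ganglion genes. SE 72 h replicates 1 and 2 held 1018 and 534 CPM of sensory ganglion genes. The part of these libraries in a scaling to the pan-neuronal list was not tested. When all libraries were scaled to the pan-neuronal list, the median of all genes at 72 h moved to 0.44 and none of the 7 genes was called, with Fibcd1 at -1.07 (adjusted p = 0.112) and Mpped1 at -0.62 (adjusted p = 0.0467). Under that scaling the counts at the earlier times were those given above, 3, 3, 2 and 4. At 36 h microglia genes summed to 587 to 679 CPM in SE against 350 to 401 CPM in Ctr, and their part in the result was not tested. Dentate granule genes were called higher for 3 of 5 at 72 h, with sums of 20.2 to 254 CPM in SE and 5.29 to 17.6 CPM in Ctr, and their part was not tested either. Interneuron genes were called lower for 4 of 8 and blood genes for 3 of 5 at 72 h, whereas 3 of 7 astrocyte, 2 of 6 oligodendrocyte and 2 of 6 vascular genes were called higher. Of 5 CA2 genes, 1 was called lower and 2 higher, and no gene of CA3, choroid plexus or sensory ganglion was called there.

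Genes that act with Hap1 and Wfs1 were listed as well. Of 10 Hap1 partners, Ahi1, which binds Hap1 in a complex, was called lower at 4 of 5 times, down to -1.06 ± 0.13 at 36 h (adjusted p = 2.91e-06). Sort1, the sortilin receptor, was called lower at 12 h (-0.77 ± 0.17, adjusted p = 0.00165) and 36 h (-0.87 ± 0.17, adjusted p = 0.000635). Ntrk2, the receptor of brain-derived neurotrophic factor, was called higher at 6 h (0.99 ± 0.10, adjusted p = 2.83e-07). Htt, which encodes huntingtin, was not called at any time, with Log2FC from -0.16 to 0.16. Of 6 partners of Wfs1 and wolframin biology, Atf6, an ER stress sensor, was called higher at 6 h (0.77 ± 0.15, adjusted p = 0.000331) and 36 h (0.70 ± 0.19, adjusted p = 0.00686), and the other 5, Cisd2 among them, were not called. Of the Hap1 paralogs, Trak2 was called higher at 24 h (0.74 ± 0.08, adjusted p = 4.01e-07) and 72 h (0.79 ± 0.10, adjusted p = 9.59e-06), and Trak1 was not called.

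The genes were also compared with the 13743 genes of at least 1 in mean log2 CPM for likeness of pattern over the 24 libraries, as Pearson r of log2 CPM, a description chosen for its size and without a test. Pou3f1, Mpped1 and Neurod6 were most like the mean of the other members (r = 0.69, 0.68 and 0.64), followed by Fibcd1 (0.58), Spink8 (0.55) and Hap1 (0.48). Wfs1 was the exception, at -0.31. Among the genes most like the mean of the 7 were Tspan13 (0.95), Npr3 (0.94), Stum (0.93), Pfn2 (0.92), Cadps2 (0.91), Dll1 (0.91) and B3gat1 (0.91). These libraries share their SE and Ctr groups, and within the 9 controls alone the values for these genes ranged from 0.69 to 0.95.

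Among single genes, Neurod6 was most like Zbtb18 (r = 0.92, and 0.92 within the 9 controls), Pou3f1 most like Gpr161 (0.89 and 0.85), and Mpped1 most like Gabra3, a GABA-A receptor subunit (0.93 and 0.85). Fibcd1 was most like Scn3b, a sodium channel subunit (0.90 and 0.86), and next Grin2b, an NMDA receptor subunit (0.89 and 0.82). Spink8 was most like 3300002P13Rik (0.87 and 0.88) and Wfs1 most like Asap1 (0.83 and 0.83). Hap1 was most like Wdr6 (0.92), but within the controls, where Hap1 varied little, that r was 0.32.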

How the data were processed

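Per the labels and the study's methods, the authors trimmed paired reads with Trim Galore 0.6.6, aligned them to GRCm39 with STAR 2.7.8a and GENCODE annotation, and counted them without strand with HTSeq 0.13.5. They deposited whole-number counts per gene, not normalized, for 24 libraries. Of 18647 genes, 18552 were matched to a symbol.

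In R 4.3.3, counts were TMM-scaled, filtered with filterByExpr over 8 groups and fitted with edgeR 4.0.16 (quasi-likelihood, 1 term per group and 1 RUVr factor, all 24 libraries in 1 fit), with Benjamini-Hochberg adjustment over 18153 genes. This was the main fit. The RUVr factor was 0.802 in Ctr 72 h replicate 2, the library with the highest sensory ganglion sum. It was -0.392 and -0.352 in Ctr 72 h replicates 1 and 3, and from -0.094 to 0.136 in the other libraries. A fit without this factor was among the alternatives. SE 6 h and SE 24 h were compared with the mean of the 3 control groups. The size of Log2FC required for a call was 0.66, and 1 where SE time points were compared with each other. Values after ± are standard errors for Log2FC and SD for levels. DESeq2 1.42.0 and limma 3.58.1 were alternatives. The scripts were tested on simulated data. From each gene list, counts were given over its tested genes, and at most the 4 genes with the largest change among those called at 12, 36 or 72 h were named, beside partners and paralogs of the 7 genes; other genes were named after their values were seen. The 7 genes and the lists were chosen with earlier results of these data known, and Hap1 names a gene cluster the study formed on these libraries, so its fall is not independent evidence. The labels do not say that replicates are separate animals, and p-values measure the spread between these libraries. Coordinates, exon lengths and shared bases are those of GENCODE M39 on GRCm39, whereas the study counted with an earlier GENCODE release. Some genes that these rules would name are not reported here.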

Additional observations from a re-analysis of the deposited data

Results flagged for a closer look

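Among the 9 control libraries, Wfs1 stood at 537 CPM in Ctr 12 h replicate 2, far from the next highest control at 172 CPM and the lowest at 67.8 CPM. The gap was larger than the critical value for the spread of 9 samples, which chance passes in about 1 of 20 groups. The other 6 genes held no such value in controls. Fibcd1 was lowest in the same library, at 43.2 CPM against 96.7 CPM in the next lowest control.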

How the results depend on the processing

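The 35 values of the 7 genes against controls were recomputed under 11 alternatives and with single libraries left out. At 12 and 36 h the omissions include Ctr 72 h replicate 2, an alternative chosen after seeing the data. Calls of Hap1 at 12, 24 and 36 h, Neurod6 at 6 and 12 h, and Fibcd1, Mpped1 and Pou3f1 at 36 h were kept in every one. With the compared groups alone in the fit, all 7 genes were called at 36 h, Wfs1 as higher and the others as lower. That setting called 1 at 72 h, 2 between SE effects and 5 between controls. The shares of all genes called under the alternatives are not given here. At 72 h the count was 1 under limma-voom, 1 with the range of label numbers as a factor and 0 when scaled to pan-neuronal genes. That factor gave 1 at 24 h and 1 each between SE effects, consecutive SE times and controls. Between SE effects the count was 1 under DESeq2, 1 under limma-voom, 3 when scaled to pan-neuronal genes and 1 with at least 10 counts in every library. Leaving out 1 library gave 1 to 2 at 72 h, 1 to 4 at 6 h, 0 to 2 between SE effects and 0 to 1 between consecutive SE times.

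With the replicate block, 1 gene was called at 72 h, where the Fibcd1 value was -1.37 (adjusted p = 0.0618), and no other count moved by over 1.5 times. The replicate numbers did not pair the libraries, since deviations of same-numbered libraries correlated from -0.20 to 0.18.

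Directions that turned were those of uncalled values. With the range of label numbers as a factor, Wfs1 was -0.74 at 72 h and -0.27 at 6 h, Spink8 0.18 and Neurod6 1.02 at 72 h, and Neurod6 0.03 at 24 h. Scaled to pan-neuronal genes, Spink8 was 0.10 at 72 h. With 1 library left out, Wfs1 ranged from -1.08 to 0.79 at 12 h and from -0.43 to 0.69 at 6 h, Spink8 from -0.70 to 0.02 at 72 h, and Pou3f1 from -0.30 to 0.03 at 6 h and from -0.48 to 0.15 at 24 h. The cause was not tested. The scaling to pan-neuronal genes raised the share of higher calls among all genes from 78.4% to 96.2% at 72 h and from 55% to 68.8% at 12 h, and scaling by library size alone raised it from 58.8% to 69.8% at 36 h. A gene that was not called at this depth and number of libraries may still have changed.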
